A study of Mus musculus with 8 samples.

Results

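Lbp encodes the lipopolysaccharide binding protein, and the genes described with it encode the proteins that sense bacterial lipopolysaccharide and pass the signal on. They are Lbp, Cd14, Tlr4, Ly96, Myd88, Ticam1, Ticam2, Irak1, Irak4 and Traf6. These 10 genes were named one by one, Lbp because the study of Setd2 in these cells singled it out and the others because they act with it. They are 10 of the 21883 protein-coding genes of the annotation used, and all 10 were found in it. For each gene the trimethylation of histone H3 at lysine 36 (H3K36me3) was described by the peaks called over its span and by coverage, the percent of the span under peaks.

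Lipopolysaccharide, a cell wall lipid of Gram-negative bacteria, is taken up from the fluid by LBP and handed to CD14, which loads it onto MD-2 (the product of Ly96) bound to the receptor TLR4. From TLR4 one arm runs through the adaptor MyD88, the kinases IRAK4 and IRAK1 and the ubiquitin ligase TRAF6 to NF-kappaB. The other arm runs through the adaptors TRAM (Ticam2) and TRIF (Ticam1) to interferon genes. Bone marrow stromal cells carry TLR4 and answer lipopolysaccharide. H3K36me3 is written by Setd2 as RNA polymerase II elongates, so that in mammals it marks the bodies of transcribed genes, with less at their starts.

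The libraries came from bone marrow stromal cells of C57BL/6J mice with both Setd2 alleles floxed, taken at passage 2. In the KO group a lentivirus expressing Cre recombinase was used to delete Setd2, and in the WT group a lentivirus expressing GFP was used, so both groups carried the floxed alleles, a lentivirus and puromycin selection (2 µg/ml for 4 days). Cells were fixed with 1% formaldehyde for 10 min and chromatin was precipitated with an H3K36me3 antibody. Each genotype had 2 H3K36me3 libraries, and both were called against the same Input library and the same IgG library of that genotype, which gave 4 peak lists against Input and 4 against IgG. Whether replicate libraries were grown as separate cultures is not in the labels, and p-values therefore rest on a spread between samples that may be only technical. KO cells are a virus-treated population, and loss of the mark in fewer cells and a lower mark in every cell cannot be told apart. The lists hold no read counts, so sequencing depth is unknown.

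The lists against Input held 122589 and 159459 peaks in the KO libraries, against 242745 and 246258 in the WT libraries. Mean coverage over all protein-coding genes was 2.92% and 3.72% in KO cells, against 26.3% and 25.5% in WT cells. Setd2 itself was covered over 0.690% and 1.70% of its span in KO cells and over 66.4% and 60.5% in WT cells, which measures the mark on the gene and not its deletion. Of 16 stromal markers, 14 had a peak in at least 1 WT library, and the summed coverage of the list was 39.1 and 42.8 points in KO cells, against 699 and 648 points in WT cells. Vim, a mesenchymal filament gene, led them with 15.1% and 0% in KO cells and 82.2% and 92.2% in WT cells, but had no peak in any list against IgG, and Thy1 had none in any list. Thy1 and Twist1 were at 0 in both WT libraries. Against IgG the stromal list summed to 10.9 and 12.2 points in KO cells and 306 and 274 points in WT cells, with Vim, Col1a1, Fn1, Thy1 and Twist1 at 0 in both WT libraries. Of 16 myeloid markers, 14 also had a WT peak, with summed coverage of 29.0 and 66.1 points in KO cells and 384 and 430 points in WT cells. The highest was Lyz2, the macrophage lysozyme, with 0% and 11.4% in KO cells and 74.9% and 87.6% in WT cells, but against IgG it was at 0% in both WT libraries, with 0% and 11.4% in KO cells. Against IgG the myeloid list summed to 19.9 and 53.2 points in KO cells and 235 and 262 points in WT cells. Mpo and Cx3cr1 were at 0 in both WT libraries. Lipopolysaccharide recognition genes are also used by myeloid cells, and the part of such cells in the values below was not tested. Lymphoid markers summed to 15.6 and 154 points in KO cells and 29.8 and 77.5 points in WT cells over 10 genes, with 5 of them at 0 in both WT libraries. Endothelial markers summed to 40.5 and 45.9 points in KO cells and 53.4 and 50.3 points in WT cells over 8 genes.

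In WT cells 9 of the 10 genes carried H3K36me3 peaks and Cd14 carried none, and in KO cells nearly all of these peaks were missing. Over the 10 genes the KO libraries had 6 and 10 peaks, against 73 and 65 peaks in the WT libraries. These covered 4.36 and 5.21 kb in KO cells, against 73.5 and 75.7 kb in WT cells. A peak was present on 4 and 5 of the genes in KO cells, against 9 and 9 in WT cells. The remaining KO peaks were narrow, with a median width of 568 and 486 bp in KO cells, against 787 and 876 bp in WT cells. Over the whole lists the medians were 566 and 568 bp in KO cells, against 688 and 668 bp in WT cells. No KO peak over these genes was wider than 2 kb, while 9 and 12 peaks of the WT libraries were, spread over 6 genes. Such peaks made up 0.0742% and 0.0690% of the whole KO lists, against 8.61% and 7.57% of the WT lists. Of the 16 KO peaks, 14 shared at least 1 bp with a WT peak. Bases under a peak in either WT library made up 21.6% of Lbp, 51.6% of Ticam2 and 82.4% of Irak4. A KO peak placed anywhere in most of these genes would thus often touch a WT peak, and nothing is read from this count.

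**Figure D1:**
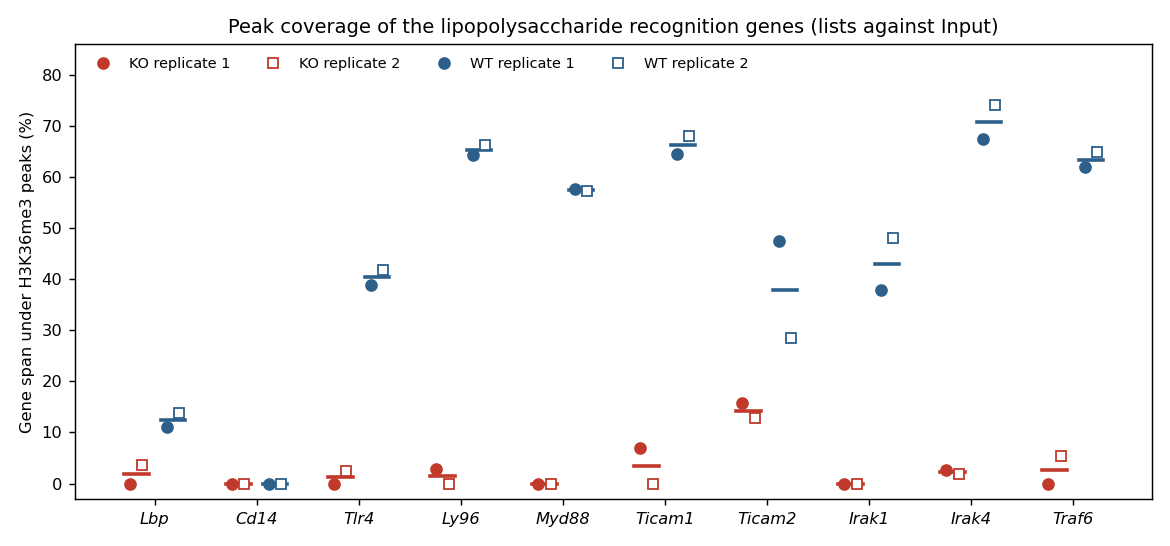
Percent of the gene span under H3K36me3 peaks called against Input for each of the 10 genes, with 1 point per library and a bar at the mean of the 2 libraries, KO to the left of WT. The KO libraries lie at or below 15.8% throughout. The WT libraries lie above them for every gene except Cd14, which is at 0 in all 4 libraries. After each library is divided by its mean coverage the order of the means turns round for Ticam2 and, narrowly, for Lbp.

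Coverage was tested with limma on all 10806 protein-coding genes whose mean over the 4 libraries was at least 10%, p-values were adjusted by the Benjamini-Hochberg method and 0.05 was the threshold. Of the 10 genes, 8 passed the 10% minimum and Lbp and Cd14 did not. The 8 that were tested fell, Ticam2 with its direction turned round by the scaling described next, against a background of 92.6% of all genes tested called lower in KO cells. The median change of the 8 was a fall of 59.0 points, against a median change of -47.7 points over all genes tested. Each library was also divided by its own mean coverage and multiplied by the mean of the 4 library means. Values scaled in this way are relative to the library mean and are not percents of a span. A changed sign means that a gene kept a larger share of its coverage than the mean did. This scaling moved the median change over all genes tested to -16.7 points. Then 5 of the 8 were called lower, against 45.2% of all genes. Ticam1, Ticam2 and Traf6 were the others, with Ticam2 changing sign. Against IgG all 8 were lower again, against a background of 91.4%. In all 9 genes with a peak both KO libraries lay below both WT libraries. The same held in 65.0% of the 18284 protein-coding genes with a peak in at least 1 library. Without the 10% minimum 8 of the 9 genes with a peak were called lower, Ticam2 being the other, against 58.5% of 18284 genes. Genes passed the minimum mainly through their WT coverage, so that a high share of tested genes called lower follows in part from the filter, and nothing is read from the count. Over all 10 genes the median change was -50.2 points, against -10.6 points over all protein-coding genes. Their median WT coverage was 50.2%, against 14.1% over all protein-coding genes, and their median KO coverage was 1.60%, against 2.17%. A gene can fall by no more than its WT coverage, so nothing is read from this difference in change.

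Lbp, at the head of the pathway, was among its least covered genes in WT cells. The gene lies at chr2:158306493-158332852 (GRCm38), a span of 26.4 kb. It was covered over 0% and 3.62% of this span in KO cells, against 11.1% and 13.9% in WT cells, so both KO libraries lay below both WT libraries. The means were 1.81% ± 2.56 in KO cells and 12.5% ± 1.96 in WT cells (SD, n = 2 each), a difference of -10.7 points. The WT mean stood at percentile 48.9 of all protein-coding genes. An exact two-sided permutation test of the 4 libraries gave p = 0.333, the smallest p that 2 against 2 libraries allow. With its mean of 7.16% over the 4 libraries Lbp was not tested in the main fit. A limma fit without the minimum gave an adjusted p of 0.0268 (standard error 2.38 points), in a fit that called 58.5% of 18284 genes lower in KO cells. After division by mean coverage Lbp stood at 7.10 scaled points in KO cells and 7.07 in WT cells, so the sign of the difference changed. The 2 means were then nearly level, and the KO mean came from KO replicate 2 alone, since KO replicate 1 had 0%.

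The peaks over Lbp were few, narrow and largely in different places in the 2 WT libraries. KO replicate 1 had no peak and KO replicate 2 had 2, of 526 and 427 bp. WT replicate 1 had 4 peaks of 585 to 789 bp and WT replicate 2 had 6 peaks of 399 to 737 bp. The authors' peak score was 38.92 and 23.38 for the KO peaks, against 18.63 to 39.13 in WT replicate 1 and 19.59 to 60.08 in WT replicate 2, on a scale that the sources used here do not state. Measured from the lower end of the span, the KO peaks began at 11.3 and 20.1 kb. The WT peaks began between 2.76 and 21.6 kb in replicate 1 and between 7.36 and 19.1 kb in replicate 2. Only the KO peak at 11.3 kb overlapped a WT peak, and only one of replicate 2.

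The WT libraries shared 0.890 kb of peak over Lbp, which is 15.6% of the bases under a peak in either library. For the other 8 genes with peaks this share ran between 43.5% in Irak1 and 89.0% in Myd88. Among 250 genes of 0.5 to 2 times the length of Lbp and with WT coverage of 10 to 15% the median share was 18.2%, with quartiles of 10.3% and 29.1%, and 41.6% of them lay below Lbp. Among 9363 genes with WT coverage of at least 25% the median was 61.9%. The poor overlap at Lbp was therefore like that of other genes with as little coverage. Against IgG coverage of Lbp was 0% and 2.00% in KO cells, against 8.19% and 13.9% in WT cells.

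**Figure D2:**
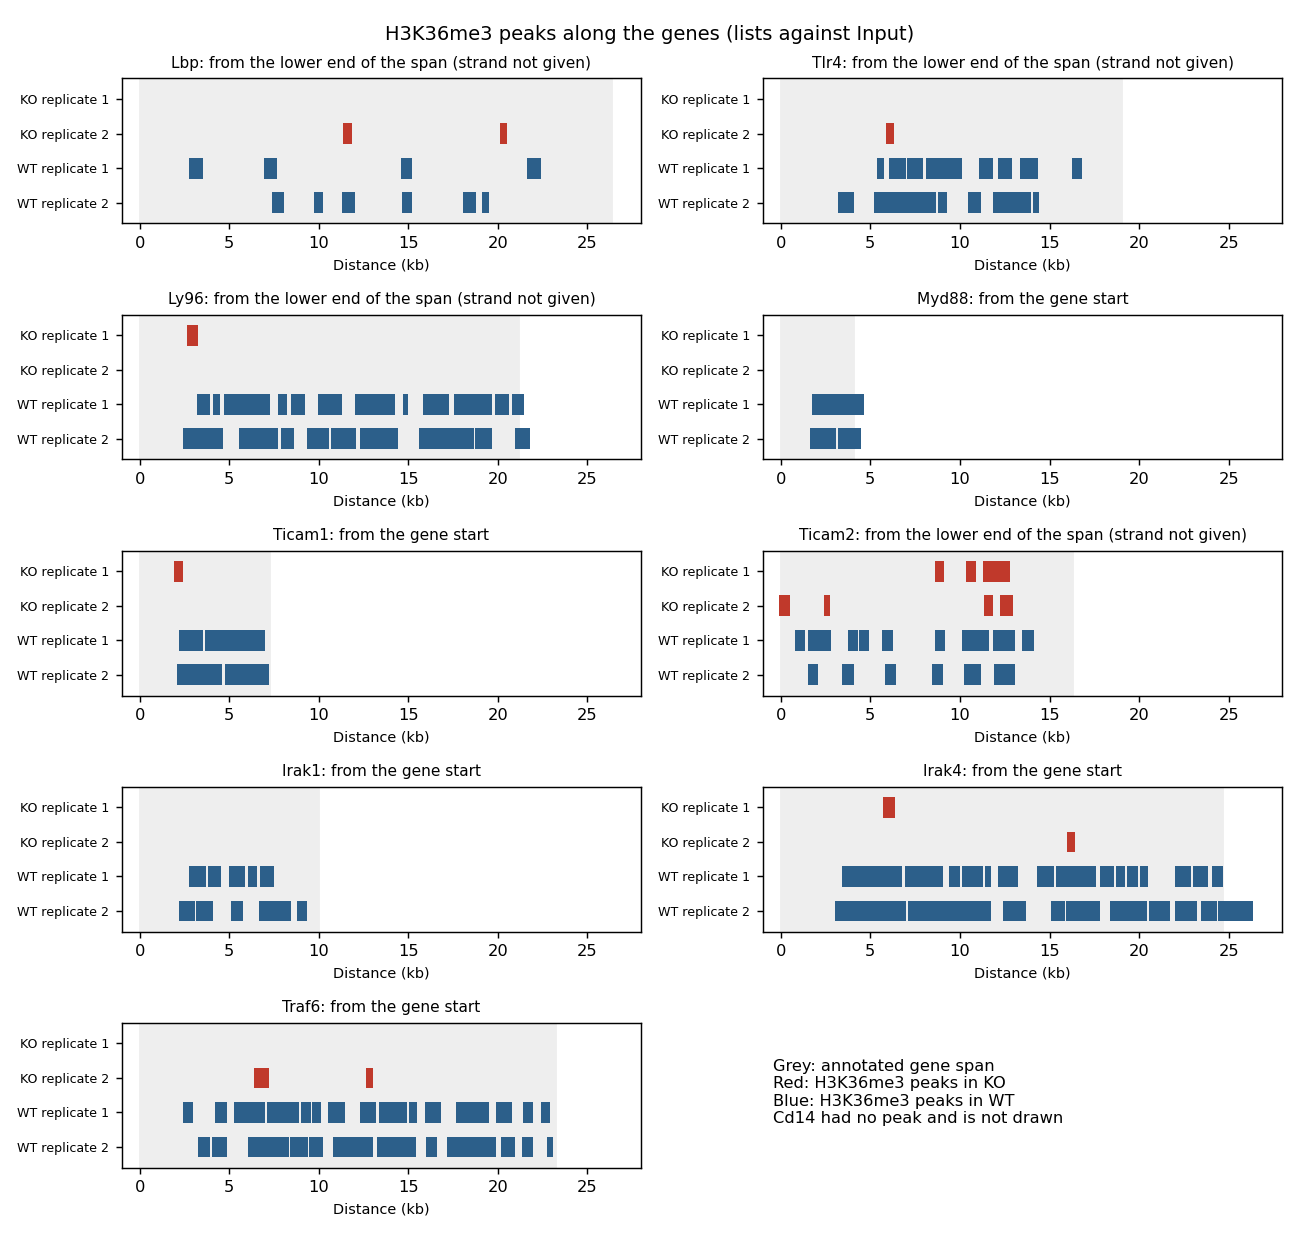
Positions of peaks called against Input along the 9 genes with peaks, with distance in kb on the horizontal axis and 1 row per library, KO in red above WT in blue, over the annotated span in grey. The WT rows of Lbp hold 4 and 6 short peaks that mostly do not line up, while Ly96, Irak4 and Traf6 are filled with peaks from some kb inside the gene onwards. Ticam2 holds 7 of the 16 KO peaks.

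The surroundings of Lbp were described up to 100 kb on either side, where 12 other genes are annotated, 3 of them protein-coding. On the side of lower coordinates lies Bpi, which encodes a related lipopolysaccharide-binding protein of neutrophil granules, 22.0 kb from Lbp. Bpi was covered over 0% and 2.44% in KO cells, against 0% in both WT libraries. Farther out, D630003M21Rik had 2.16% and 5.61% in KO cells, against 2.25% and 0% in WT cells, and the long noncoding RNA gene Gm34571 had 10.2% and 0% in KO cells, against 0% and 5.15% in WT cells. Mir7685 had no peak. For none of these genes did both KO libraries lie below both WT libraries.

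On the side of higher coordinates the pattern was different. Snhg17, a noncoding host gene of small nucleolar RNAs 20.8 kb from Lbp, was covered over 7.08% and 0% in KO cells, against 80.5% and 81.9% in WT cells. The 3 small genes inside it were at 0% in KO cells and 100% in WT cells. Ralgapb, which encodes the beta subunit of a GTPase-activating protein for Ral, was covered over 2.03% and 1.32% in KO cells, against 62.9% and 61.2% in WT cells. Its change of -60.4 points passed the test (standard error 2.04, adjusted p = 0.000211 in limma). Snhg11 lies between them and had no peak in the lists against Input, nor did the 2 small nucleolar RNA genes inside it. Lbp thus stood between a side nearly without coverage in WT cells and a side with a densely covered gene on it.

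Over the whole window of 226 kb peaks covered 3.65% and 3.74% in KO cells, against 10.4% and 10.0% in WT cells. Outside annotated genes the peaks amounted to 5.92 and 6.29 kb in KO cells, against 5.64 and 4.34 kb in WT cells. The stretch between Lbp and Snhg17 was covered over 0% and 2.81% in KO cells, against 14.5% and 14.0% in WT cells. That between Bpi and Lbp was covered over 2.16% and 9.96% in KO cells, against 6.06% and 0% in WT cells. In WT cells the peaks of the stretch between Lbp and Snhg17 lay at its end beside Snhg17, from 43.6 kb in replicate 1 and 44.1 kb in replicate 2 as counted from the lower end of Lbp, except for 1 peak of 505 bp next to Lbp in replicate 2.

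**Figure D3:**
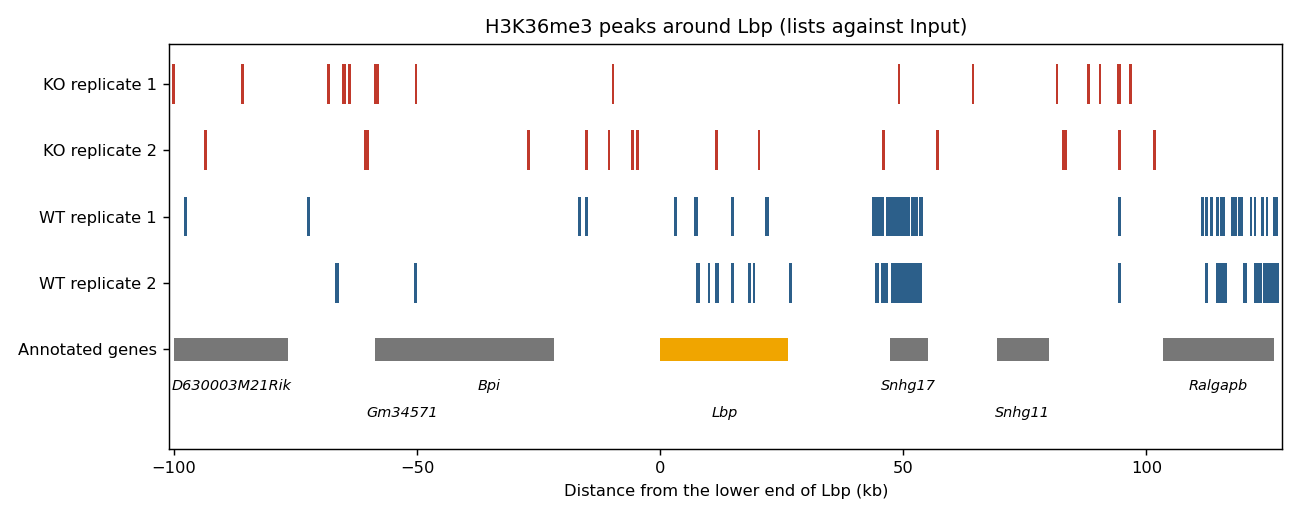
Peaks called against Input around Lbp, with distance in kb from the lower end of Lbp on the horizontal axis, KO libraries in red above WT libraries in blue, and annotated genes below with Lbp in orange. The WT peaks crowd over Snhg17 and Ralgapb, with 80.5% and 81.9% of Snhg17 covered, while those over Lbp are thin and scattered. KO peaks are spread over the window with no crowding on a gene.

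The genes closest to Lbp in coverage over the 4 lists, among 7781 protein-coding genes of 0.5 to 2 times its length, were Sh3bgrl2, Bend5 and Cage1. Their summed absolute differences from Lbp were 1.98, 2.60 and 3.12 points. Sh3bgrl2 had 1.05% and 4.09% in KO cells, against 11.5% and 14.0% in WT cells. Bend5 had 0% and 5.52% in KO cells, against 11.6% and 13.7% in WT cells. Cage1 had 1.73% and 3.45% in KO cells, against 12.1% and 14.2% in WT cells. Their likeness was the basis on which they were chosen.

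Cd14, the co-receptor that takes lipopolysaccharide from LBP, lies at chr18:36725064-36726815 and spans 1.75 kb. It had no peak in any of the 8 lists and was not tested. Tlr4, the receptor, lies at chr4:66827551-66846581 and was covered over 0% and 2.51% in KO cells, against 38.9% and 41.7% in WT cells. It fell by 39.1 points (standard error 2.31, adjusted p = 0.000375 in limma). Its WT libraries held 8 and 7 peaks, the widest of 2011 and 2910 bp, and the KO libraries held 0 and 1. Ly96, the gene of MD-2, lies at chr1:16688456-16709605 and was covered over 2.80% and 0% in KO cells, against 64.2% and 66.3% in WT cells. It fell by 63.9 points (standard error 2.31, adjusted p = 0.000211 in limma), with 1 and 0 peaks in KO cells, against 13 and 12 in WT cells. The 3 receptor components thus ran from no called peak on Cd14 to the dense coverage of Ly96 in WT cells. Cd14 is far shorter than Tlr4 (19.03 kb) and Ly96 (21.15 kb), and the part of gene length was not tested. For Tlr4 and Ly96 both KO libraries lay below both WT libraries, as in 65.0% of the 18284 genes with a peak.

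The genes of the MyD88 arm were covered over their bodies in WT cells and nearly bare in KO cells. Myd88 (chr9:119335934-119340018), which encodes the adaptor that binds the receptor, had no peak in either KO library, against coverage of 57.6% and 57.2% in WT cells. It fell by 57.4 points (standard error 1.94, adjusted p = 0.000211 in limma). In WT replicate 1 this was a single peak of 2906 bp, and in WT replicate 2 it was 4 peaks of 518 to 792 bp over almost the same bases. Irak4 (chr15:94543613-94568317), the kinase that MyD88 recruits, was covered over 2.75% and 1.90% in KO cells, against 67.3% and 74.1% in WT cells. Its fall of 68.4 points was the largest of the 8 tested genes (standard error 3.15, adjusted p = 0.000250 in limma), and its widest WT peak, of 4679 bp, was the widest over any of the 10 genes.

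Irak1 (chrX:74013914-74023921), the kinase that IRAK4 activates, had no peak in KO cells, against coverage of 37.9% and 48.0% in WT cells, and fell by 42.9 points (standard error 4.19, adjusted p = 0.00135 in limma). The microRNA gene Mir5132 lies within its span and Mir718 overlaps the start of the gene, each over less than 1% of the span. Traf6 (chr2:101678420-101701668), the ubiquitin ligase at the end of this arm, was covered over 0% and 5.30% in KO cells, against 61.9% and 64.8% in WT cells. It fell by 60.7 points (standard error 2.95, adjusted p = 0.000269 in limma), with 0 and 2 peaks in KO cells and 15 and 12 in WT cells. No KO library reached any WT library in the 4 genes of this arm. Both KO libraries lay below both WT libraries in 65.0% of the 18284 genes with a peak as well.

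The starts of the 5 genes with a promoter window carried no peak in any list. RefSeq windows of 300 bases, of which 250 lie before the start and 50 after it, were given for Myd88, Ticam1, Irak1 (2 overlapping windows), Irak4 and Traf6 on GRCm38.p6. No base of these windows was under a peak in any of the 8 lists. For Lbp, Cd14, Tlr4, Ly96 and Ticam2 no window was given, and their starts were not examined. In WT replicate 1 and WT replicate 2 the first peak lay 1.68 and 1.55 kb from the window of Myd88, 3.33 and 2.90 kb from that of Irak4 and 2.40 and 3.22 kb from that of Traf6. The windows of an adaptor, a kinase and the ligase of the MyD88 arm are printed because no peak touched these starts while the gene bodies beyond them were covered in WT cells. They read in the direction of the gene, at chr9:119339969-119340268 on the minus strand for Myd88, chr15:94543410-94543709 on the plus strand for Irak4 and chr2:101678170-101678469 on the plus strand for Traf6, with matches to the GC box in capitals.
Myd88: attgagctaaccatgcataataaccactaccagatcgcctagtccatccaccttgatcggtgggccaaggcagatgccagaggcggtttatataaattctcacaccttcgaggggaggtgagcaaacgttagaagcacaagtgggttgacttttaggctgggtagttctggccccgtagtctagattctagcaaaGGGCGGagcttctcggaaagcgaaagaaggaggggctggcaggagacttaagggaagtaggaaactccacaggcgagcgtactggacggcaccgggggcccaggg
Irak4: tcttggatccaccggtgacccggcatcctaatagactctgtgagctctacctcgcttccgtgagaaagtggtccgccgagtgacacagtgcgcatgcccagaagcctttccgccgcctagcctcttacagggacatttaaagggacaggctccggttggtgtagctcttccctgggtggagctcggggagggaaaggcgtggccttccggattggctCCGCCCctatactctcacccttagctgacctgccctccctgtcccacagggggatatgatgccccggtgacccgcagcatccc
Traf6: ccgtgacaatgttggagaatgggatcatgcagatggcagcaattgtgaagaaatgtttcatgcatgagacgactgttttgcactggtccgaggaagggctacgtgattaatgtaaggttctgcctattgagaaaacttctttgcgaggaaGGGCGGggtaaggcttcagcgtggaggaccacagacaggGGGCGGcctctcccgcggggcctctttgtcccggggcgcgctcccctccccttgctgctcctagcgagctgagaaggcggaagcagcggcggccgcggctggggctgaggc
The search for the GC box used GGGCGG and its reverse complement CCGCCC, and found 1 match in Myd88, 1 in Irak4 and 2 in Traf6, where 46.2% of 21262 windows of 17491 genes hold at least 1. TATAAA or its reverse complement TTTATA was found in Myd88 alone of the 5 genes, as 2 matches that overlap each other, and in 12.6% of all windows. CCAAT or its reverse complement ATTGG was found in Irak4 alone, and in 38.2% of all windows. The windows held 13 CpG dinucleotides in Myd88, 16 in Irak4 and 19 in Traf6, against a median of 13. A free start was common, since of 9603 windows of genes with WT coverage of at least 25% only 0.489% and 0.573% were touched by a peak in KO cells, and 5.22% and 4.85% in WT cells.

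Within these 5 genes, whose strand the window table gives, the part far from the start was more covered than the part near it in all 10 pairs of gene and WT library. In Myd88 the near part was covered over 15.2% and 21.5% in WT cells and the far part over 92.8% in replicate 2 and almost entirely in replicate 1. In Ticam1 the near part was covered over 37.5% and 43.4% and the far part over 91.4% and 92.6%. The difference was smaller in Irak4, at 63.6% and 70.4% near the start and 71.0% and 77.8% far from it. The same order held in 90.0% and 89.4% of 7645 genes in the 2 WT libraries, so it was the common one.

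The genes of the other arm, Ticam1 and Ticam2, differed in how closely their WT libraries agreed. Ticam1 (chr17:56269462-56276767), the adaptor TRIF, was covered over 7.01% and 0% in KO cells, against 64.5% and 68.0% in WT cells. It fell by 62.7 points (standard error 3.48, adjusted p = 0.000335 in limma). After division by mean coverage the change was -19.8 points and the call was lost (adjusted p = 0.330 in limma). Ticam2 (chr18:46558231-46574533), the adaptor TRAM that links TRIF to the receptor, was covered over 15.8% and 12.8% in KO cells, against 47.4% and 28.4% in WT cells. The KO libraries lay below both WT libraries, and against Input the 2 WT libraries stood farther apart than on any other of the 10 genes. Its means were 14.3% ± 2.12 in KO cells and 37.9% ± 13.4 in WT cells (SD, n = 2 each), and its change of -23.6 points just passed the test (standard error 7.44, adjusted p = 0.0424 in limma) but became 43.3 points after division by mean coverage.

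Ticam2 held more KO peaks than any other of these genes. KO replicate 1 had 3 peaks over it, of 530, 543 and 1497 bp, and KO replicate 2 had 4, of 325 to 753 bp, against 10 and 6 peaks in the WT libraries. The KO peak of 1497 bp began 11.3 kb from the lower end of the span and met peaks of KO replicate 2 and of both WT libraries. The KO libraries shared 1.07 kb of peak over Ticam2, 29.7% of the bases under a peak in either. Of the other genes only Irak4 had a peak in both KO libraries, and those peaks shared no base. The Ticam2 peak of 1497 bp and the KO replicate 2 peaks it met were absent from the lists against IgG. There the KO peaks that overlapped between the libraries lay elsewhere. They began at 1.79 kb in KO replicate 1 and at 1.28 and 2.41 kb in KO replicate 2. Against IgG Ticam2 was covered over 7.70% and 9.93% in KO cells, against 36.1% and 21.0% in WT cells (change called lower, adjusted p = 0.0468 in limma). The call for Ticam2 was lost when any library but WT replicate 2 was left out, with adjusted p between 0.0899 and 0.183 in limma.

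**Figure D4:**
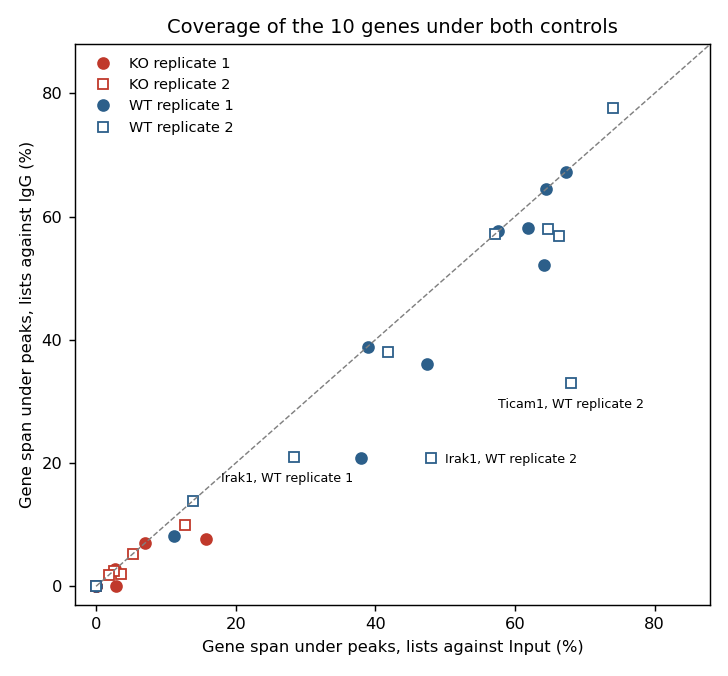
Coverage of the 10 genes in the lists called against Input (horizontal axis, percent of span) and against IgG (vertical axis, percent of span), with 1 point per gene and library and a dashed line of equality. Most points lie on or just under the line, and Ticam1 in WT replicate 2 and Irak1 in both WT libraries lie far below it.

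The choice of control moved some WT values. Against IgG Irak1 stayed at 0% in both KO libraries and stood at 20.8% and 20.9% in WT cells. Ticam1 stood at 7.01% and 0% in KO cells, against 64.5% and 33.1% in WT cells (adjusted p = 0.0350 in limma), so that the loss of coverage was confined to WT replicate 2. The peak counts over the 10 genes were 4 and 8 in KO cells, against 64 and 57 in WT cells. Myd88 had the same values under either control.

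Other genes of the same pathway were read beside these in 4 lists. As above, the genes that reached the 10% minimum did so mainly through their WT coverage, so medians are given over the tested genes and over the whole list. Of 18 other Toll-like receptors and their cofactors 9 were tested. These 9 were called lower, as were 92.6% of all genes tested. The median change was -52.4 points over those tested and -15.2 points over all 18. Hsp90b1, the chaperone gp96 that folds Toll-like receptors, fell by 87.1 points with 0% in both KO libraries, against 92.0% and 82.2% in WT cells, and against IgG it had 0% in both KO libraries and 59.6% and 30.8% in WT cells. Unc93b1, which carries nucleic acid-sensing receptors to endosomes, fell by 65.4 points. The smallest falls were those of Tlr6 (13.1 points) and Tlr5 (17.5 points), receptors for lipopeptides and flagellin, and both changed sign after division by mean coverage, to 8.02 and 1.94 points. The 9 not tested were Cd180, Cd36, Ly86, Tlr7, Tlr8, Tlr9, Tlr11, Tlr12 and Tlr13. Of these, Tlr11 had 10.0% and 9.63% in KO cells, against 0% in both WT libraries, and Tlr9 had 13.3% and 0% in KO cells, against 0% in both WT libraries, while neither had a peak in the lists against IgG.

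Of 20 signal transducers 17 were tested. These 17 were called lower, as were 92.6% of all genes tested. The median change was -55.1 points over those tested and -54.2 points over all 20. Tbk1, a kinase of the TRIF arm, fell by 83.2 points with 6.97% and 5.24% in KO cells, against 89.9% and 88.7% in WT cells. Ikbke, its relative, fell by 79.6 points. Peli1, a ubiquitin ligase that acts on IRAK1, fell by 26.3 points and Tab2, an adaptor of the kinase TAK1, by 40.3 points. The median change of 15 negative regulators was -46.4 points, and it was -61.0 points over the 11 tested. These 11 were called lower, as were 92.6% of all genes tested. They ran from Usp4, a deubiquitinase of TRAF6 (-82.5 points), and Tnip1, a partner of A20 (-68.4 points), to Atf3, a repressor of cytokine genes (-43.5 points), and Otud7b, a deubiquitinase (-29.8 points). Sigirr, not tested, had 5.22% and 0% in KO cells, against 0% in both WT libraries.

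Of 11 genes for other lipopolysaccharide-binding and clearing proteins 9 were tested. These 9 were called lower, as were 92.6% of all genes tested. The median change was -39.5 points over those tested and -35.6 points over all 11. Gbp2, an interferon-induced GTPase that acts on lipopolysaccharide in the cytosol, fell by 85.0 points with 0% in both KO libraries, against 84.8% and 85.1% in WT cells. Pltp, a lipid transfer protein of the same family as LBP, fell by 72.0 points with 0% in both KO libraries, against 68.9% and 75.2% in WT cells. Aoah, the enzyme that deacylates lipopolysaccharide, fell by 23.0 points, and Itgam, an integrin of myeloid cells, fell by 18.7 points but changed sign after division by mean coverage, to 5.80 points. Bpi and Cd55 were not tested. Against IgG 8 of 8 receptors and cofactors and 16 of 17 transducers were called lower. So were 11 of 11 negative regulators and 9 of 9 binding and clearing genes, against 91.4% of all genes tested. Without any filter, both KO libraries lay below both WT libraries in 15 of 18 receptors and cofactors, 20 of 20 transducers, 12 of 15 negative regulators and 10 of 11 binding and clearing genes, against 65.0% of genes with a peak. The list totals include Tlr12 and Socs1, which had no peak, while the 65.0% leaves such genes out. After division by mean coverage 4 of 9 receptors and cofactors, 12 of 17 transducers, 7 of 11 negative regulators and 3 of 9 binding and clearing genes were lower, and 1 gene, Tlr6, was higher, against 45.2% of all genes lower.

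**Figure D5:**
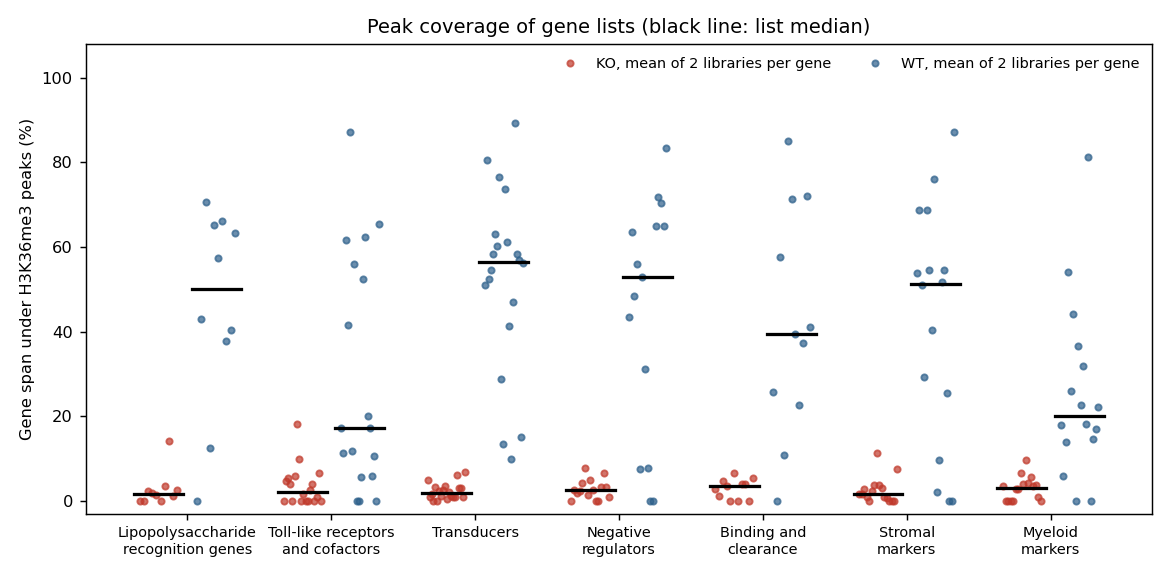
Mean coverage per gene in KO cells (red, left) and WT cells (blue, right) for the 10 lipopolysaccharide recognition genes, 4 pathway lists and 2 marker lists, in percent of the gene span, with a black line at the median of each list. The KO medians lie between 1.60% and 3.63%, and the WT median is lowest for the other Toll-like receptors and cofactors at 17.2%. The order of single genes such as Ticam2, Tlr5, Tlr6 and Itgam turns round after division by mean coverage.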

How the data were processed

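H3K36me3 ChIP-seq was read from 8 peak lists that the authors deposited. Per the labels, each list holds 1 library set against either control of its genotype. The submitters' processing notes name Bowtie2 and GRCm38, with no version. Peak names start with MACS. Each peak carries a deposited score, a value of the authors that served here to rank and filter peaks inside a list. The other deposited values are peak positions, printed counted from 1. The lists hold no counts, so a deeper library could give more and wider peaks.

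Coverage was the percent of a gene span (RefSeq, GRCm38.p6, 21883 protein-coding genes, with neither exons nor strand) under peaks. Sharing meant at least 1 bp. Percent coverage of KO and WT libraries was compared with limma 3.58.1 and statmod 1.5.0 in R 4.3.3, with a mean-variance trend and robust priors, over all genes with a mean of at least 10%, with Benjamini-Hochberg adjustment. A mean filter keeps genes that fell. The same script was tested on simulated data. Overlaps used Python 3.11.15, numpy 2.4.6 and pandas 2.3.3, and figures matplotlib 3.10.9.

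The genes and lists were chosen with earlier results of these data known. Named are the 10 genes, the neighbours of Lbp, up to 2 tested genes with the largest and 2 with the smallest change of each pathway list, the highest and lowest of each marker list by WT coverage, the 3 genes most like Lbp, and Setd2. Genes left untested and small groups were named after their values were seen. Alternatives changed the control, the score minimum, the coverage filter, merging of peaks, the gene span, scaling, the model, the replicate block and the libraries used.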

Additional observations from a re-analysis of the deposited data

How the results depend on the processing

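With 10010 genes called lower in the main comparison, 5881 were called with a coverage minimum of 25%, 4889 after division by mean coverage, and 8462 to 9231 with 1 library left out, where the lone library of a genotype was assumed to vary like the other genotype. Of the 8 tested genes of the pathway, 5 were called after division by mean coverage and 7 to 8 with 1 library left out. The Lbp difference was -2.61 points with peaks at or above the median score of their list, -6.38 points with a score of at least 30, 0.0308 points after division by mean coverage, and -12.5 to -8.90 points with 1 library left out. The mean difference in peak number over the 10 genes was -61 peaks, -54.5 against IgG and -65 to -57 with 1 library left out, an alternative chosen after seeing the data. Ticam2 lost its call with a score of at least 30 (adjusted p = 0.0782), without a filter (0.0693) and with peaks merged within 1 kb (0.0927). Myd88 (0.0902) and Irak1 (0.0543) lost theirs with peaks at or above the median score, and Traf6 (0.0941) after division by mean coverage, all in limma. Division by mean coverage changed the sign of Ticam2 (43.3 points), Tlr6 (8.02 points, adjusted p = 0.0448 in limma), Tlr5 (1.94), Itgam (5.80), Egfl7 (3.47) and Cd79b (51.5). Cd79b also changed sign against IgG (7.99), without KO replicate 1 (12.7) and without WT replicate 2 (15.9), within a range of -22.3 to 15.9 points with 1 library left out. The cause was not tested. Deviations of libraries with the same replicate number correlated at -0.0032 over 10806 genes. Mean KO coverage was only 2.92% and 3.72% over all protein-coding genes, which leaves KO deviations little room. The correlation therefore cannot show whether the numbers pair the libraries. A fit with the replicate block called 9990 genes lower. The unknown depth limits what an absent peak, as on Cd14, can show.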
